A study of Homo sapiens with 4 samples.

Results

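The interleukin-6 family ligand and receptor genes were described in 2 human cell lines in which ADAR, which edits adenosine to inosine within double-stranded RNA, had been knocked down. The members are 6 genes, chosen by symbol: the ligand genes IL6 and LIF, the locus LOC541472 antisense to IL6, and the receptor genes IL6ST, OSMR and LIFR. They are 6 of the 1409 distinct genes in the authors' deposited table for HepG2 and 0 of the 942 in that for K562; the tables together hold 2257 distinct genes. The members were chosen with their HepG2 folds between knockdown and control known. The averages and folds given for them are therefore a description with no test. All 6 have a value in HepG2, and none was dropped by a filter here.

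HepG2 cells derive from a liver tumour and K562 cells from a leukemia. The groups were HepG2 cells carrying a plasmid with an siRNA against ADAR1 (HepG2_ADARkd), HepG2 cells carrying a scrambled siRNA plasmid (HepG2_control), and the corresponding K562_ADARkd and K562_control cells. All 4 groups were stable transfectants grown in medium with fetal calf serum, and several siRNAs had been tried before the one with the best ADAR reduction was kept. Each group was 1 sample with 2 technical replicates, per the labels; whether a line was a clone or a pool is not given in the sources used here. The study asked how ADAR affects alternative splicing, and the deposited tables hold gene-level averages only.

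Cytokines of the interleukin-6 family share a receptor subunit, gp130, the product of IL6ST. Interleukin-6 binds its own receptor IL6R before it engages gp130, whereas leukemia inhibitory factor brings together LIFR and gp130, and oncostatin M brings together OSMR and gp130 or, in humans, also LIFR and gp130. The receptors signal through JAK kinases and the transcription factor STAT3, and in liver cells interleukin-6 is best known as an inducer of acute-phase proteins. SOCS3, a target of STAT3, shuts the receptor off again.

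The promoter windows of 5 of the 6 members are held by the RefSeq promoter table (build GRCh38.p14), each from 250 bases before to 50 bases after a start site. The deposited tables were made on hg19, so the windows were matched by gene and not by coordinate. They are shown because IL6 and its antisense locus were higher together, because OSMR and IL6ST differed by nearly the same fold, and because LIFR was lower. LIF is the member not shown. The windows are chr7:22726950-22727249 on the plus strand for IL6, chr7:22727571-22727870 on the minus strand for LOC541472, which RefSeq names IL6-AS1, chr5:38845762-38846061 on the plus strand for OSMR and chr5:55994914-55995213 on the minus strand for IL6ST. For LIFR the table holds 3 start sites, and the window of the first, chr5:38595356-38595655 on the minus strand, is printed. Capitals mark matches to 5 motifs searched on both strands: AP-1 (TGANTCA), C/EBP (TTGCNNAA), STAT (TTCNNNGAA), the core of the cyclic AMP response element, CRE (TGACGT), and the NF-kB consensus.
IL6: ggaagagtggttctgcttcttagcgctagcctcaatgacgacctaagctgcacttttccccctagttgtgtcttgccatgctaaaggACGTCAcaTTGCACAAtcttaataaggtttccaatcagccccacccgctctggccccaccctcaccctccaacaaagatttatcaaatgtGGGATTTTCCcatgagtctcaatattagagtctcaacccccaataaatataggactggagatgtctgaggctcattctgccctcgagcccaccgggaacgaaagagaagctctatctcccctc
LOC541472: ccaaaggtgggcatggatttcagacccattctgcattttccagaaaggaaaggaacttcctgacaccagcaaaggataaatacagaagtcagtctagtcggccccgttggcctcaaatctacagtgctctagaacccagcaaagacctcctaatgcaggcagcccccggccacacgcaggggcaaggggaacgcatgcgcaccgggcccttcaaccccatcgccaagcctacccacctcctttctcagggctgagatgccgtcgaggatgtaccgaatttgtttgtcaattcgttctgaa
OSMR: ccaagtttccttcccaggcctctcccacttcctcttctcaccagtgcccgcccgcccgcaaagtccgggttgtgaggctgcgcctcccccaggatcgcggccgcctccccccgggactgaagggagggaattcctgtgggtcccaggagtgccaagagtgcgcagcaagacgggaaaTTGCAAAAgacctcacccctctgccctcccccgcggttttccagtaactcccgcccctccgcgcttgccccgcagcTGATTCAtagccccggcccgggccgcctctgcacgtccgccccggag
IL6ST: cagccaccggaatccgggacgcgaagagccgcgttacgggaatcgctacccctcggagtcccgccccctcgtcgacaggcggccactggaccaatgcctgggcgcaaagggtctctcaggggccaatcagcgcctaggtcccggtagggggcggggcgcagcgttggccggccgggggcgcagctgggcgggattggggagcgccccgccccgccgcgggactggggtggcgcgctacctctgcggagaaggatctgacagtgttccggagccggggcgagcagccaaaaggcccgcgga
LIFR: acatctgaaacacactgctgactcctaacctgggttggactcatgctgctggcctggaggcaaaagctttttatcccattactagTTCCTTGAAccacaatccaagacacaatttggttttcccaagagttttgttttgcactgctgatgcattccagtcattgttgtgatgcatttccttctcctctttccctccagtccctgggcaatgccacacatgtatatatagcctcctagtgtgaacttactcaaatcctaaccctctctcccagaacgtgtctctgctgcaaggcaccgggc

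The IL6 window held 3 matches. A CRE core lay at -163 to -158 from the start site, a C/EBP match at -155 to -148 and an NF-kB match at -73 to -64. These motifs are bound by factors known to drive IL6 transcription in other cells. Over 35116 promoter windows of the same length, 7.98% held a CRE core, 10.5% a C/EBP match and 5.91% an NF-kB match. The window of LOC541472 and that of IL6ST held none of the 5 motifs. The OSMR window held a C/EBP match at -73 to -66 and an AP-1 match at 4 to 10, where AP-1 matches occur in 7.71% of windows. LIFR had a STAT match in the windows of 2 of its 3 start sites, at -165 to -157 and at -182 to -174, against 7.66% of all windows, and 1 C/EBP match at the second. No match overlapped another. A match is a run of letters and not a binding site, and a window without one says nothing about a factor. The windows also differed in base composition: GC content was 49.3% for IL6, 54.0% for LOC541472, 67.7% for OSMR and 72.7% for IL6ST, and the 3 LIFR windows had 47.3%, 42.3% and 81.7%, with a median of 58.7% over all windows.

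**Figure D1:**
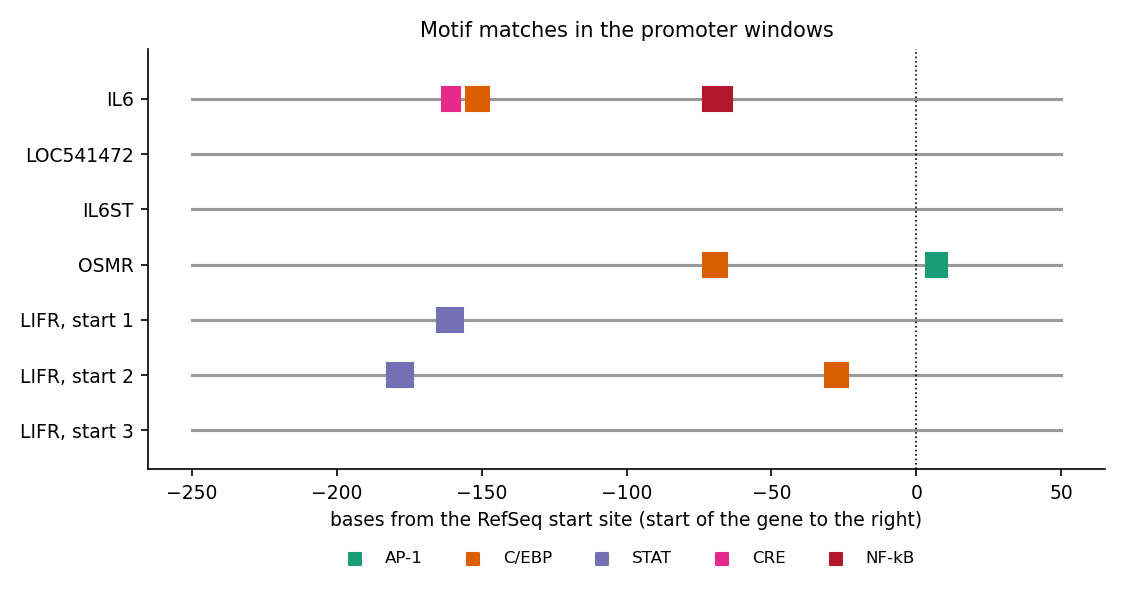
Positions of motif matches in the RefSeq promoter windows of the members, in bases from the start site (horizontal axis), 1 line per start site; coloured boxes are matches on either strand. IL6 has 3 matches, OSMR has 2, and LOC541472 and IL6ST have none.

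In HepG2, 5 of the 6 members were higher in the knockdown and 1, LIFR, was lower. Of all 1409 genes in that table, 55.0% were higher and 45.0% lower in the knockdown. The rule used the same contrast, so nothing is read from the members' count. The median log2 fold of the 6 members was 1.39, and it was 1.35 without LOC541472. Over all listed genes the median was 1.05. With 55.0% of them higher and none under 2-fold, that median could not lie under 1. The members were chosen by these folds, so nothing is read from their median either. Values are the authors' averages per gene, whose unit and depth are not stated. A fold is the knockdown average plus 1 over the control average plus 1, the scale of the deposited folds. With 1 sample in each group there is no replicate error to set beside any value.

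The ligand gene IL6 (ENSG00000136244), which encodes interleukin-6, had an authors' average of 450.2 in the HepG2 knockdown and 7.83 in the HepG2 control. The knockdown value stood far above a control value near the bottom of the scale. The fold was 51.1, a log2 fold of 5.67, and it ranked 4 among the 775 genes that were higher. LIF (ENSG00000128342), which encodes leukemia inhibitory factor, averaged 84.7 in the knockdown and 30.8 in the control. It was higher by 2.69-fold (log2 fold 1.43) and ranked 321 of 775. On this scale the difference for IL6 exceeded that for LIF by 19.0-fold, or 4.25 in log2.

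LOC541472 (ENSG00000179428), a noncoding locus on the strand opposite to IL6, averaged 409.8 in the knockdown and 2.75 in the control. Its log2 fold of 6.78 was the highest in the table, and the fold was 110, though the size of such a fold depends on the constant added to so low a control average. GENCODE release 29 annotates the locus as an antisense gene under the name AC073072.1. In that annotation its exons share 428 bases with exons of IL6, which is 31.4% of the exonic length of the antisense locus and 20.7% of that of IL6. Strand-specific counting is not stated, so a read in the shared bases could belong to either gene, and the 2 rows may not be separate observations. The ratio of the authors' average of LOC541472 to that of IL6 was 0.910 in the knockdown and 0.351 in the control. With 10 in place of 1 added to each average, the fold of LOC541472 would be 32.9 and that of IL6 25.8. Both averages of IL6 become whole numbers when multiplied by 6, and both of LOC541472 when multiplied by 4. What was averaged is not stated, so the counts behind the control averages are unknown.

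IL6ST (ENSG00000134352), the gene of the shared subunit gp130, averaged 134.5 in the HepG2 knockdown and 52.2 in the control, a 2.54-fold difference (log2 fold 1.35). OSMR (ENSG00000145623), the oncostatin M receptor subunit that also pairs with IL31RA to bind interleukin-31, averaged 591 in the knockdown and 235 in the control. It was higher by 2.51-fold (log2 fold 1.33). The folds of these 2 receptor subunits were nearly equal, and differed by -0.02 in log2 (OSMR minus IL6ST). They ranked 391 (IL6ST) and 406 (OSMR) among the 775 genes that were higher, near the middle of the order. OSMR is the member closest to the authors' 2-fold limit, and no gene under that limit is in the table.

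LIFR (ENSG00000113594), the subunit that binds leukemia inhibitory factor, averaged 54.8 in the knockdown and 153 in the control. It was lower by 2.75-fold (log2 fold -1.46), which left 35.9% of the control value, and it ranked 272 of the 634 genes that were lower. The receptor gene LIFR and the gene of its ligand LIF thus had opposite directions in the same pair of libraries. In these bulk samples, fewer cells that express a gene and less RNA per cell cannot be told apart.

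**Figure D2:**
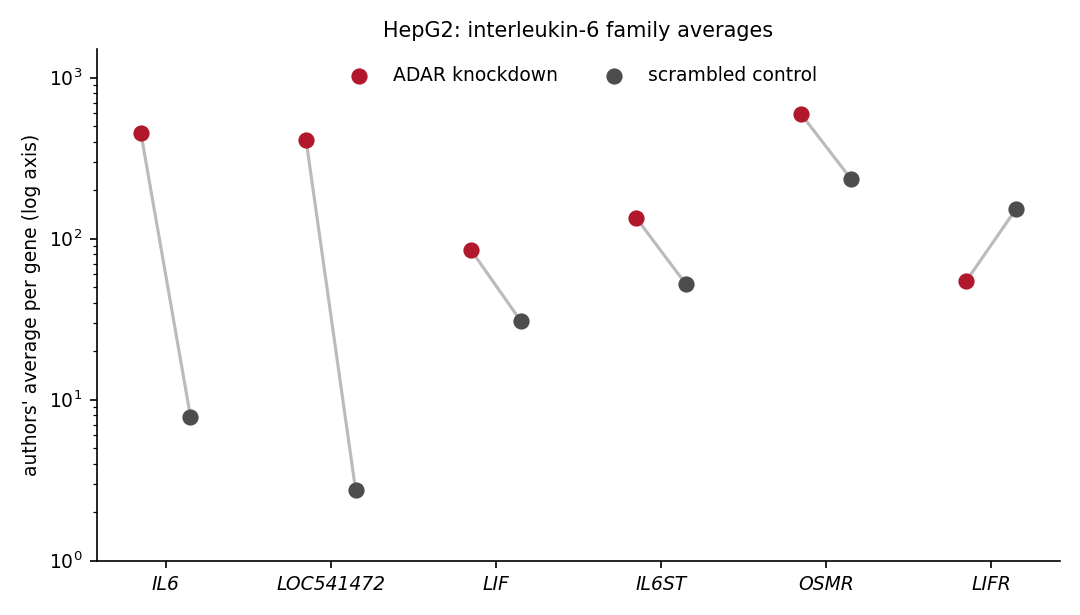
Authors' average per gene in the HepG2 ADAR knockdown (left point, red) and the HepG2 scrambled control (right point, grey) for the 6 members, on a log axis, with 1 sample per group and no error. IL6 and LOC541472 show the steepest lines (450.2 against 7.83, and 409.8 against 2.75), and LIFR is the member with the knockdown point below the control point (54.8 against 153); heights of different genes are not comparable.

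The difference between 2 members' log2 folds does not depend on how the libraries were scaled, apart from the constant added. The ratio of the authors' average of OSMR to that of LIFR was 10.8 in the knockdown and 1.54 in the control. On the log2 scale with 1 added, OSMR exceeded LIFR by 2.79, a 6.90-fold shift, and by 2.81 with nothing added. IL6ST exceeded LIFR by 2.81 in log2, a 7.01-fold shift, and its ratio to LIFR was 2.46 in the knockdown and 0.342 in the control. LIF exceeded LIFR by 2.89 in log2, a 7.41-fold shift. The ratios themselves compare genes without correction for length and are not relative abundances. LIFR was listed past 2-fold lower, and OSMR, IL6ST and LIF past 2-fold higher. That they differed unequally from LIFR between these 2 libraries was therefore fixed by the choice of members. The shifts give only the size of that difference, with 1 sample per group.

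The scaling between libraries is not stated, and it decides which of the smaller folds pass 2-fold. If the knockdown averages were divided by 1.5, LIF would be 1.80-fold, IL6ST 1.70-fold and OSMR 1.67-fold higher, all under 2-fold. If they were multiplied by 1.5, LIFR would be 1.85-fold lower. IL6 would still be 34.1-fold and LOC541472 73.1-fold higher after division by 1.5. No member turned its direction under either scaling, but a factor of 1.5 cannot reverse a fold past 2, so this was fixed in advance.

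**Figure D3:**
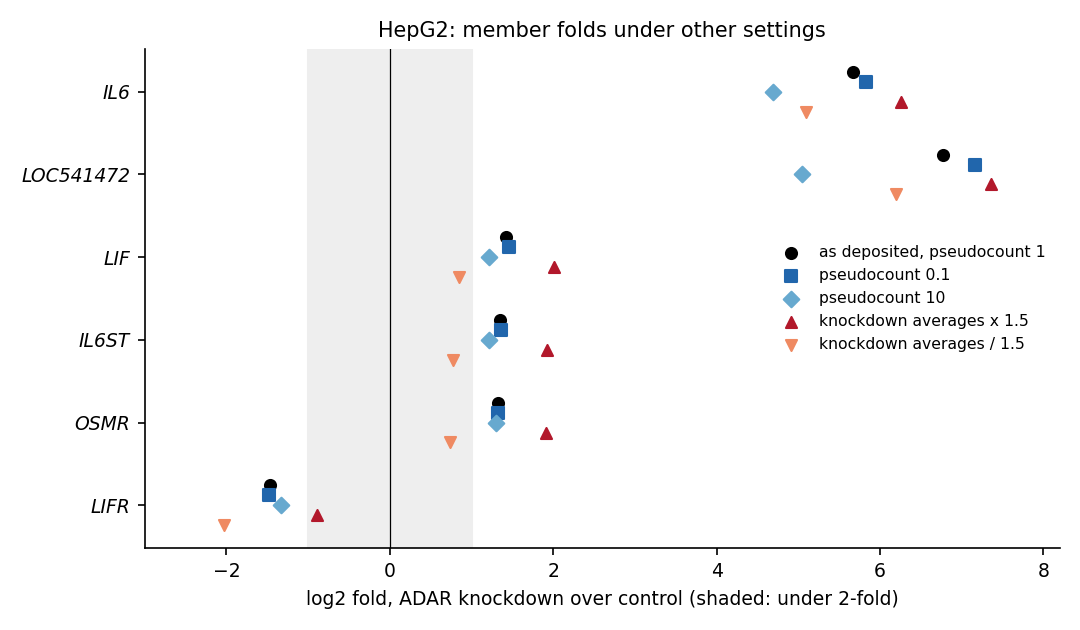
Log2 fold of each member in HepG2, ADAR knockdown over control (horizontal axis), with the averages as deposited and under 4 other settings; the shaded band holds folds under 2. IL6 and LOC541472 stay outside the band throughout, LIF, IL6ST and OSMR enter it when knockdown averages are divided by 1.5, and LIFR enters it when they are multiplied by 1.5.

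None of the 6 members was in the K562 table. A gene absent from that table is unlisted there, which does not show that it was unaltered. Its difference may have been under 2-fold or its level too low: no K562 row had a larger average under 13.8. Of the 942 genes in that table, 38.2% were higher and 61.8% lower in the knockdown. The 2 lines therefore cannot be compared for these genes. ADAR itself averaged 129 in the HepG2 knockdown and 461 in the HepG2 control, leaving 28.1%, and 131 in the K562 knockdown and 275 in the K562 control, leaving 47.6%.

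The wider family was read through lists of related genes, which were drawn up with earlier results of these tables known. Of 19 ligand and receptor genes of the family, 5 were in the HepG2 table, or 26.3%, and 0 in the K562 table. As background, 4.52% of the 19951 protein-coding genes of GENCODE release 29 were in the HepG2 table and 2.06% in the K562 table. The 5 are the protein-coding members, which were chosen for being there, so the share supports nothing. Not in either table were, among others, IL11, OSM (the ligand of OSMR) and IL6R, the receptor through which interleukin-6 reaches gp130. Whether the cells expressed these genes cannot be read from the tables.

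Of the genes that carry the signal inside the cell, 0 of 16 JAK-STAT transducers, among them JAK1 and STAT3, were in either table. Of 14 feedback inhibitors, which include SOCS3 and CISH, 0 were in either table. Of 31 acute-phase genes, the classic liver response to interleukin-6, 0 were listed by symbol in either line. Through its Ensembl identifier 1 further row of the HepG2 table is CFB (ENSG00000243649), complement factor B, with an authors' average of 59.9 in the knockdown and 10.5 in the control (log2 fold 2.40). No row of SAA1, CRP, HP or the fibrinogen genes was present. Genes under 2-fold were left out by the authors, so smaller differences in any of these genes were not detectable here. As background, 4.52% of protein-coding genes were in the HepG2 table and 2.06% in the K562 table. At such shares few genes of lists this size would be listed. The lists that are empty by symbol are therefore not read as a result.

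Of 25 genes listed as STAT3 targets, 12 (48%) were in the HepG2 table, against 4.52% of all protein-coding genes. All 12 were higher in the knockdown, where 55.5% of the 899 protein-coding genes listed there were higher. Their median log2 fold was 1.54, against 1.35 over the 775 genes higher in the knockdown; a median of listed higher genes cannot lie under 1, the authors' limit in log2. EGR1, an early growth response transcription factor, averaged 1407 in the knockdown and 198 in the control (log2 fold 2.82). BCL3, an atypical I-kappa-B protein, averaged 172 in the knockdown and 39.5 in the control (log2 fold 2.09). The transcription factor gene KLF4 had a log2 fold of 2.01, the mucin gene MUC1 one of 1.97 and the kinase gene PIM1 one of 1.59. VEGFA, a vascular growth factor gene, averaged 926 in the knockdown and 364 in the control (log2 fold 1.35). Many of these genes also answer to growth factors and other stress signals, OSMR is itself on the list, and the list holds SOCS3, which was not in the table. Genes such as EGR1 and VEGFA were known to be in the table when the list was drawn up. Its count is therefore not independent evidence of a direction or of a high share. With knockdown averages divided by 1.5, 6 of the 12 would still be past 2-fold. In K562, 1 of the 25 was listed, CCND1, the cyclin D1 gene, at 4 in the knockdown and 23 in the control. As background, 2.06% of protein-coding genes were in the K562 table, and 61.8% of its genes were lower.

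Of 30 genes that regulate IL6 transcription or the decay of its mRNA, 7 (23.3%) were in the HepG2 table, against 4.52% of all protein-coding genes. All 7 were higher in the knockdown, where 55.5% of the listed protein-coding genes were higher. The list was drawn up with earlier results known, so nothing is read from its count. In K562, 0 of the 30 were listed, where 2.06% of protein-coding genes were. The 7 had a median log2 fold of 1.71, against 1.35 over the 775 higher genes. JUNB, an AP-1 subunit, averaged 4161 in the knockdown and 856 in the control (log2 fold 2.28), and FOSL1, another AP-1 subunit, had a log2 fold of 1.57. CEBPB, first described as a nuclear factor for IL6, averaged 2038 in the knockdown and 724 in the control (log2 fold 1.49). NFKBIZ, a nuclear cofactor of NF-kB that is needed for IL6 induction in mouse macrophages, averaged 75.8 in the knockdown and 22.5 in the control (log2 fold 1.71). RELB, an NF-kB subunit, had a log2 fold of 1.30. The other listed members act against inflammatory signals: TNFAIP3, which restrains NF-kB signalling (log2 fold 2.07), and ZFP36L1, which promotes decay of mRNAs with AU-rich elements (log2 fold 2.14). The listed genes thus have opposite known roles toward IL6. JUNB and CEBPB are on both this list and the STAT3 list, so the 2 lists together hold 17 distinct listed genes. With knockdown averages divided by 1.5, 4 of the 7 would still be past 2-fold.

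**Figure D4:**
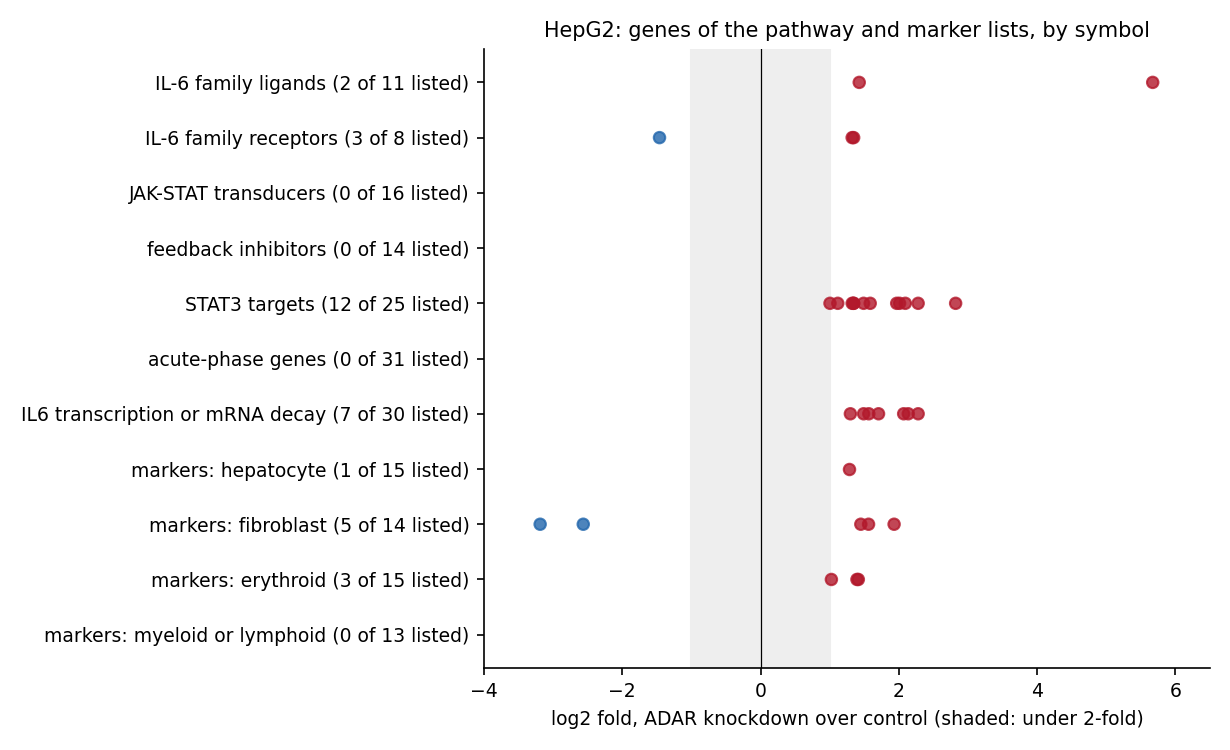
Log2 fold in HepG2, ADAR knockdown over control (horizontal axis), of every listed gene of each pathway or marker list, 1 point per gene, red where higher and blue where lower in the knockdown; row labels give how many genes of the list are in the table by symbol. All 12 listed STAT3 targets and all 7 listed regulators of IL6 lie to the right, and the JAK-STAT, feedback and acute-phase rows are empty. For comparison, 4.52% of protein-coding genes are in this table, and the lists were drawn up with earlier results known.

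The listed genes nearest to each member in log2 fold, restricted to symbols with a larger average no lower than the median of the table, were named as a description over the 2 HepG2 averages. Nearest to IL6 were the chemokine gene CXCL2, at 184 in the knockdown and 3 in the control and 0.14 away in log2, and IL1B, at 58.5 in the knockdown and listed at 0 in the control. Nearest to LOC541472 was IL8, the neutrophil chemoattractant gene, 0.43 away. LIF lay beside JDP2 and GARS, IL6ST beside VEGFA and JUB, OSMR beside DUSP8 and RNF41, and LIFR beside TMEM81 and TNNC1, each within 0.01 in log2.

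The 3 receptor genes lie on chromosome 5, IL6 and LOC541472 on chromosome 7 and LIF on chromosome 22. LIFR and OSMR are neighbours, transcribed from opposite strands, with 4 RefSeq genes between them, of which 0 are protein-coding and 0 were in the HepG2 table by symbol. Of 4 GENCODE genes between them, 0 were in that table by identifier. OSMR was higher and LIFR lower in the knockdown. Antisense genes share exonic bases with LIF (LIF-AS1 and AC004264.1), IL6ST (AC008914.1) and LIFR (LIFR-AS1). RICTOR shares some with OSMR, and STEAP1B shares 46 with IL6 and with LOC541472. None of these partners was in either table. For IL6ST, the 797 bases shared with AC008914.1 are 8.58% of its exonic length. For LIFR, the 629 bases shared with LIFR-AS1 are 5.30% of its exonic length.

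Markers of other cell types were looked up beside these results, since fibroblasts are a known source of interleukin-6 and leukemia inhibitory factor. Of 14 fibroblast markers 5 were in the HepG2 table: COL5A2, DCN and LUM were higher and TAGLN and COL3A1 were lower. For comparison, 4.52% of protein-coding genes were listed in HepG2 and 2.06% in K562, and 55.0% of the genes listed in HepG2 were higher. The marker lists were drawn up with earlier results known, so nothing is read from these counts. COL3A1, at 34.5 in the knockdown and 323 in the control, and TAGLN, at 23.2 in the knockdown and 142 in the control, had the largest folds of the 5. LUM averaged 1445 in the knockdown and 528 in the control, and DCN 774 in the knockdown and 261 in the control. The sum over the 5, carried by LUM and DCN, was 2627 in the knockdown and 1345 in the control, and 0 of the 5 were at 0 in a group. Their part in the IL6 result was not tested. Of 15 hepatocyte markers 1 was listed, APOE at 21.5 in the knockdown and 8.25 in the control, so the liver identity of the cells could not be checked from a table limited to genes past 2-fold. Of 15 erythroid markers, the HepG2 table held 3 globin genes, HBM, HBA2 and HBZ, all higher in the knockdown, where 55.0% of listed genes were higher, and the K562 table held 0. Exons of HBM and HBZ overlap those of another listed gene, so their rows may not be separate observations. Of 13 myeloid or lymphoid markers 0 were listed in HepG2 and 1 in K562, ITGAM, at 11.6 in the knockdown and 28.8 in the control.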

How the data were processed

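RNA of HepG2 and K562 cells with an ADAR knockdown or a scrambled control was read on an Illumina GAIIx as 76-base paired ends, per the labels. The submitters' processing notes name TopHat, SAMtools and hg19 with no version; how genes were counted, annotated and scaled, and whether strand was used, is not given in the sources used here. For each line the deposited table holds the authors' average for knockdown and control, treated as a signal of unstated unit. The authors' log2 fold is that of both averages plus 1. Their signed fold, a score in the deposited tables, is the same ratio, made negative where the knockdown is lower. Per the file headers, both tables hold only genes past 2-fold. Depth is unknown.

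Folds were recomputed with a pseudocount of 1, which understates low genes, and a symbol given in several rows was kept once, at its highest mean. With 1 sample per group nothing was tested. Members and lists were chosen with earlier results of these data known. Named were the 6 members, ADAR, every listed gene of the smaller pathway lists, up to 8 STAT3 targets or acute-phase genes, the 2 nearest genes in log2 fold per member and listed cell type markers. Overlaps were taken from GENCODE release 29 (GRCh38), which matched 1278 HepG2 and 840 K562 identifiers; 463 and 496 rows had no symbol. Protein features, planned at first, were not analysed here. Alternatives were other pseudocounts, thresholds, filters, scalings and symbol matching. The fold calculation returned planted folds in simulated data, and the motif search found a planted AP-1 motif. List counts, overlaps and the other motifs were not checked this way. Python 3.11.15, numpy 2.4.6, pandas 2.3.3 and matplotlib 3.10.9 were used.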

Additional observations from a re-analysis of the deposited data

How the results depend on the processing

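All 6 members kept their direction in HepG2 under the 4 alternatives run on their folds, none of which could turn it. An equal constant keeps the order of the averages, and a factor of 1.5 cannot reverse a fold past 2. The alternatives thus show only how far the sizes moved. With a pseudocount of 0.1 the log2 folds were 5.83 for IL6, 7.17 for LOC541472, 1.45 for LIF, 1.36 for IL6ST, 1.33 for OSMR and -1.48 for LIFR. With a pseudocount of 10 they were 4.69 for IL6, 5.04 for LOC541472, 1.21 for LIF, 1.21 for IL6ST, 1.29 for OSMR and -1.33 for LIFR. With knockdown averages multiplied by 1.5 they were 6.26 for IL6, 7.36 for LOC541472, 2.01 for LIF, 1.93 for IL6ST, 1.91 for OSMR and -0.89 for LIFR. With knockdown averages divided by 1.5 they were 5.09 for IL6, 6.19 for LOC541472, 0.85 for LIF, 0.77 for IL6ST, 0.74 for OSMR and -2.03 for LIFR. Of the 28 list counts, 22 were 0 and a stricter setting cannot raise them; the other 6 gave 54 values under the alternatives, of which 16 moved by over 1.5 times. At 3-fold, ligands higher in HepG2 numbered 1, receptors 0 in either direction, regulators of IL6 4 and STAT3 targets 6. At 4-fold these were 1, 0, 3 and 4. With knockdown averages divided by 1.5, added for these counts after seeing the data, they were 1 ligand, 0 higher receptors, 4 regulators and 6 STAT3 targets; with averages multiplied by 1.5, 0 receptors were lower. Without genes whose exons overlap another listed gene, also added later, 1 ligand remained, LIF. Matching by identifier added 1 higher acute-phase gene, CFB. Fewer genes can pass a higher threshold, which is the construction of those alternatives. No paired analysis was possible because each group is 1 sample with no replicate number. Each technical replicate alone was not analysed here, and low control averages, as for IL6 and LOC541472, have unknown precision.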
